A study of Mus musculus with 2 samples.

Results

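The genes described here are 9 markers of the epicardium and mesothelium of the embryonic heart: the transcription factors Wt1 and Tcf21, the uroplakins Upk1b and Upk3b, the mesothelial surface proteins Msln and Lrrn4, and the simple-epithelial keratins Krt8, Krt18 and Krt19. They were taken by name, after Ensembl gene identifiers had been matched to mouse symbols, and all 9 were found among the 17646 genes listed in the deposited tables. RNA from hearts of BALB/c mouse embryos at embryonic day 13.5 was sequenced. The series holds 1 library of SRSF10-/- hearts (KO), in which the splicing factor gene Srsf10 is disrupted, and 1 library of wild-type hearts (WT). The sources used here state neither how many embryos stand behind each library, nor their sex, nor the design of the Srsf10 allele.

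The epicardium is the mesothelial sheet that covers the heart. It forms when cells of the proepicardium spread over the myocardium, and part of its cells later undergo an epithelial-to-mesenchymal transition and give rise to fibroblasts and mural cells of the coronary vessels. Mesothelial cells keep epithelial traits, such as keratin filaments and an apical surface coated with glycoproteins, and the epicardium adds a set of transcription factors that regulate that transition. The same genes also mark the linings of the pericardium, lung and abdominal cavity, so their RNA in a dissected heart need not all come from the epicardium.

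The knockout library held 38.89 M uniquely mapped reads and the wild-type library 39.61 M. Srsf10 itself had 212 reads in KO, at 1.45 RPKM (reads per kilobase of listed gene length, scaled to the size of the library), against 5245 reads and 35.3 RPKM in WT. Heart muscle RNA was abundant in both libraries, with cardiac actin (Actc1) at 5799 RPKM in KO and 6350 RPKM in WT. Y-linked transcripts of Ddx3y, Eif2s3y, Kdm5d and Uty summed to 7 reads in KO and 2943 in WT, so the sex of the tissue and the genotype cannot be told apart in any value below. With 1 library per group there is no replicate check and no test. Intervals are exact 95% intervals of read counts and cover counting error only, and higher and lower refer to these libraries.

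In the knockout heart, 6 of the 9 genes had more RNA and 3 were at nearly the same level as in wild type. The counting interval lay above 1 for those 6 genes, and for 28% of all genes with at least 1 RPKM in either library. The mesothelial surface genes Upk1b, Upk3b, Msln and Lrrn4 and the keratins Krt8 and Krt18 lay between 1.22-fold and 1.44-fold higher in KO, whereas the transcription factor genes Wt1 and Tcf21 and the keratin Krt19 lay between 0.98 and 0.998 of their WT level. Together the 9 genes had 16525 reads in KO and 14512 in WT, which per library read is 1.16-fold more (1.13 to 1.19). Upk3b alone held 42.5% of these reads in KO and 40.5% in WT, and without it the sum was 1.12-fold higher (1.09 to 1.15). Since this is bulk RNA, more cells of a type and more RNA per cell cannot be told apart.

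**Figure D1:**
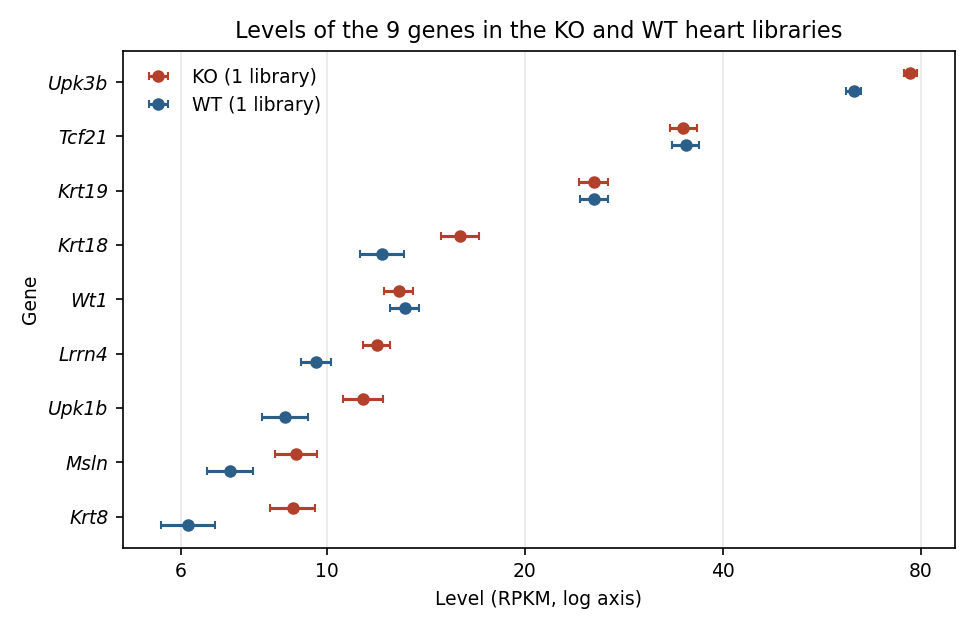
Level of each of the 9 genes in RPKM (log axis) in the KO library and the WT library, with exact Poisson 95% intervals that cover counting error only. Upk3b is highest in both libraries, at 77.1 RPKM in KO and 63.2 in WT, and the points of Tcf21, Krt19 and Wt1 nearly coincide between libraries.

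The levels spanned about an order of magnitude, and their order was nearly the same in both hearts. In KO it ran from Upk3b (77.1 RPKM) through Tcf21, Krt19, Krt18, Wt1, Lrrn4, Upk1b and Msln to Krt8 (8.88 RPKM). In WT the same order held, except that Wt1 stood above Krt18, and the ends were again Upk3b (63.2 RPKM) and Krt8 (6.15 RPKM). Some neighbours in this order could not be separated at this depth. In KO the counting intervals of Wt1 and Lrrn4, of Lrrn4 and Upk1b, and of Msln and Krt8 overlapped, and in WT those of Wt1 and Krt18, of Lrrn4 and Upk1b, and of Msln and Krt8 did. Reads covered nearly the whole listed length of every gene in both libraries, from 95.26% (Tcf21) to 99.57% (Upk3b) in KO and from 95.18% (Tcf21) to 99.81% (Wt1) in WT. Upk3b was more abundant than 95.9% of the listed genes in KO and 94.7% in WT, and Krt8 more abundant than 62.5% in KO and 54.6% in WT.

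Wt1 (ENSMUSG00000016458, chromosome 2) encodes a zinc finger protein that the epicardium needs for its transition to mesenchyme, and which also acts in kidney and gonad. It had 1547 reads in KO and 1608 in WT, or 12.9 RPKM in KO and 13.1 RPKM in WT. The level in KO was thus 0.98 of that in WT (0.913 to 1.052), an interval that includes no change. Splice forms of Wt1, which include or lack a short insert between zinc fingers, are summed in these gene totals and were not separated. Tcf21 (ENSMUSG00000045680, chromosome 10), a basic helix-loop-helix factor of the epicardium and of the precursors of cardiac fibroblasts, had 1657 reads in KO and 1701 in WT. Its level was 34.8 RPKM in KO and 35.1 RPKM in WT, a ratio of 0.992 (0.927 to 1.062). The factors also kept their proportion to each other: Wt1 stood at 0.369 of the Tcf21 level in KO and at 0.374 in WT, and the ratio of these ratios was 0.988 (0.895 to 1.09).

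The promoter of Tcf21 is shown because its gene is the most abundant of those with a ratio near 1. It covers the 250 bases before the RefSeq start of the gene (GRCm38.p6, chr10:22820144-22820393, minus strand, 52.4% G and C), written 5′ to 3′, with motif matches in capitals.
Tcf21: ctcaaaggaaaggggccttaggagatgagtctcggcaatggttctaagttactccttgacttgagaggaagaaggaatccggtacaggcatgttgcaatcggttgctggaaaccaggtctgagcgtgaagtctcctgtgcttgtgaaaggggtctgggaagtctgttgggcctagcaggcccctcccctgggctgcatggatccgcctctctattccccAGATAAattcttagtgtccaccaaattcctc
The motifs searched on both strands were the E-box CANNTG and, within it, CACCTG, the GATA motif AGATAA, the TEAD motif GGAATG, the GC box GGGCGG and the TATA box TATAAA. In Tcf21 the window held a single match, AGATAA, starting 31 bases before the gene start, and 9.99% of the 32851 promoters of the same length hold that motif. A match describes letters, not binding.

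The uroplakins were both higher in the knockout heart. Uroplakins were named for the membrane plaques of bladder urothelium, and Upk1b, a tetraspanin, and Upk3b, a single-pass membrane protein, are also made by mesothelium. Upk3b (ENSMUSG00000042985, chromosome 5) had 7030 reads in KO and 5875 in WT, which is 77.1 RPKM in KO and 63.2 RPKM in WT. It was 1.22-fold higher (1.18 to 1.26), and as the deepest counted of the 9 genes it had the narrowest interval. Upk1b (ENSMUSG00000049436, chromosome 16) had 781 reads in KO and 606 in WT, or 11.4 RPKM in KO and 8.65 RPKM in WT. That is 1.31-fold higher (1.18 to 1.46). The pair kept close proportions, with Upk1b at 0.147 of the Upk3b level in KO and 0.137 in WT and a ratio of ratios of 1.08 (0.962 to 1.21), whose interval includes 1. The other uroplakins were low or at 0: Upk1a had 52 reads in KO and 49 in WT, Upk2 had 0 in KO and 2 in WT, Upk3bl had 1 in KO and 0 in WT, and Upk3a was listed in neither table.

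The Upk3b promoter is shown as that of the most abundant of the genes that were higher (GRCm38.p6, chr5:136038246-136038495, plus strand, 60.8% G and C), again as the 250 bases before the start.
Upk3b: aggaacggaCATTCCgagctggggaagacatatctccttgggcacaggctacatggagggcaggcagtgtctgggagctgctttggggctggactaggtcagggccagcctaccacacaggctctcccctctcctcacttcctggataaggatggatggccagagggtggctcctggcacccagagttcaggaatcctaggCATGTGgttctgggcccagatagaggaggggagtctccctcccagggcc
The capitals mark a TEAD motif on the opposite strand (CATTCC, starting 241 bases before the start) and an E-box (CATGTG, 49 bases before it). Of all promoters, 12.6% hold the TEAD motif and 66.2% an E-box.

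Both mesothelial surface genes were higher as well. Msln encodes mesothelin, a glycoprotein anchored at the outer face of the cell membrane of mesothelial cells. Msln (ENSMUSG00000063011, chromosome 17) had 738 reads in KO and 597 in WT, which is 8.98 RPKM in KO and 7.13 RPKM in WT, 1.26-fold higher (1.13 to 1.41). Lrrn4 encodes a leucine-rich repeat membrane protein found in nervous tissue and mesothelium. Lrrn4 (ENSMUSG00000043110, chromosome 2) had 1720 reads in KO and 1418 in WT, or 11.9 RPKM in KO and 9.64 RPKM in WT, 1.24-fold higher (1.15 to 1.33). Msln stood at 0.754 of the Lrrn4 level in KO and 0.740 in WT, and the ratio of these ratios was 1.02 (0.894 to 1.16). Summed by role, surface genes were 1.24-fold (1.17 to 1.32) and uroplakins 1.23-fold (1.19 to 1.27) higher, against 0.986 (0.939 to 1.036) for the transcription factors.

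The keratins differed among themselves. Keratin filaments are built from pairs of a type II and a type I chain, and in simple epithelia Krt8 is the type II chain and Krt18 and Krt19 are type I partners. Krt8 (ENSMUSG00000049382, chromosome 15) had 623 reads in KO and 440 in WT, or 8.88 RPKM in KO and 6.15 RPKM in WT, 1.44-fold higher (1.27 to 1.63) and the largest ratio among the 9 genes. Krt18 (ENSMUSG00000023043, chromosome 15) had 869 reads in KO and 674 in WT, which is 15.96 RPKM in KO and 12.2 RPKM in WT, 1.31-fold higher (1.19 to 1.45). Krt19 (ENSMUSG00000020911, chromosome 11) had 1560 reads in KO and 1593 in WT, so that its level was 25.5 RPKM in both and its ratio 0.998 (0.9297 to 1.07). Krt8 and Krt18 kept their proportion to each other, at 0.556 in KO and 0.506 in WT (ratio of ratios 1.10, 0.935 to 1.29). Their proportion to Krt19 differed beyond counting error. Krt8 stood at 0.349 of the Krt19 level in KO and 0.241 in WT, a ratio of ratios of 1.45 (1.253 to 1.67), and Krt18 at 0.627 in KO and 0.476 in WT, a ratio of ratios of 1.32 (1.16 to 1.49).

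Krt8 and Krt18 are neighbours on chromosome 15, with no annotated gene lying wholly within the 23697 bases between them in GRCm38. Their promoters are shown because the ratios of these genes were alike. The windows are the 250 bases before each start, for Krt8 at chr15:102004343-102004592 on the minus strand (58% G and C) and for Krt18 at chr15:102027966-102028215 on the plus strand (60.4% G and C) of GRCm38.p6.
Krt8: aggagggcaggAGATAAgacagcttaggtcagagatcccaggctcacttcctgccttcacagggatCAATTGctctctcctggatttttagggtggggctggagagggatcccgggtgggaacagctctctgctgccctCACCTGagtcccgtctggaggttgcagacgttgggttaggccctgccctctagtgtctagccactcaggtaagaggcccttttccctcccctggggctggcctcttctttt
Krt18: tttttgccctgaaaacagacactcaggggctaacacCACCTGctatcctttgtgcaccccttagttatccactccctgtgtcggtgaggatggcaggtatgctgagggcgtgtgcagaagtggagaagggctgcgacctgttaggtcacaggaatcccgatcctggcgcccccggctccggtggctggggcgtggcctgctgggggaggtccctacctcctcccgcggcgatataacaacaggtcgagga
The capitals mark the same motifs as above. The E-box CACCTG occurs in both windows, 111 bases before the start of Krt8 and 214 bases before that of Krt18, and in 17.2% of all promoters. Krt8 also holds the E-box CAATTG, 184 bases before the start, and AGATAA, 239 bases before it. The counts of these keratins have a limit of their own, since only uniquely mapped reads were counted. Of the 31-base words of its longest transcript, 32.3% for Krt8 and 11.4% for Krt18 occur in transcripts of other genes, chiefly the processed pseudogenes Krt8-ps and Gm5200, neither of which is listed in the tables. The other 7 genes share less than 1% of their words. Krt8 and Tcf21 overlap antisense genes (Gm36026 and Gm10824, neither listed in the tables), and with the use of strand unstated their reads cannot be told apart. None of the 9 genes lies on chromosome 4, where Srsf10 lies.

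**Figure D2:**
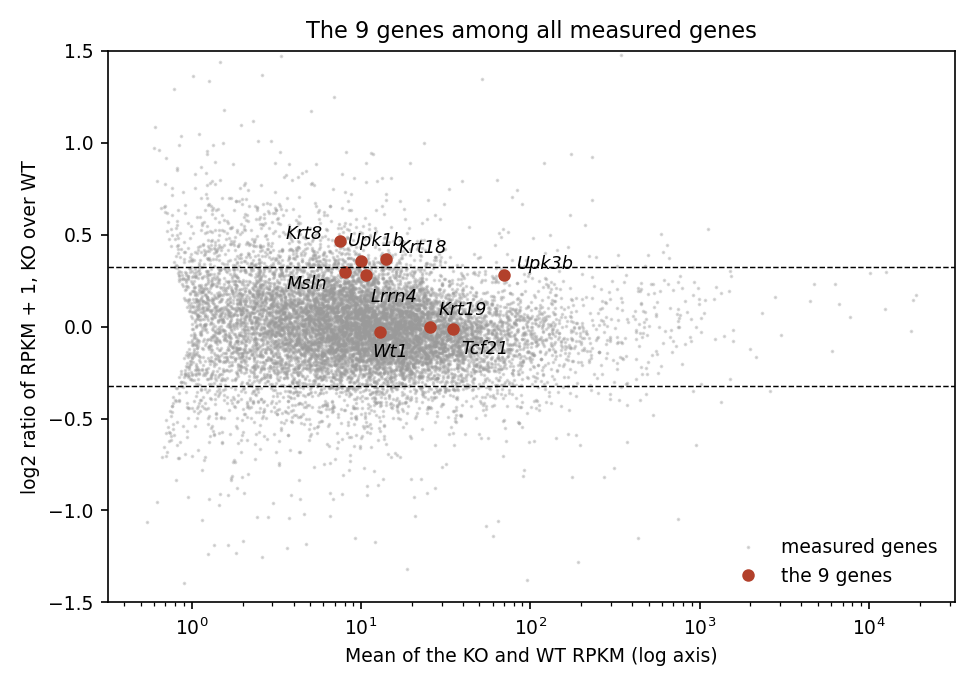
Log2 ratio of RPKM + 1 (KO over WT) against the mean RPKM of both libraries (log axis) for all measured genes (grey) and the 9 genes (red), with dashed lines at 25% higher and 20% lower, and 20 genes beyond a log2 ratio of 1.5 in either direction not drawn. Krt8, Upk1b and Krt18 lie above the upper line, Msln, Upk3b and Lrrn4 just below it, and Krt19, Tcf21 and Wt1 at 0.

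How unusual these differences are was read against all 12329 genes with at least 1 RPKM in at least one library, using the log2 ratio of RPKM + 1 and a limit of 25% higher or 20% lower on that scale. All 9 genes passed that minimum in both libraries. Krt8 (0.47), Krt18 (0.37) and Upk1b (0.36) were at least 25% higher, 3 of 9, where 6.95% of all measured genes were. Of the 9 genes, 0 were at least 20% lower, where 6.98% of all measured genes were. Among the 6481 measured genes with a mean level in the range of the 9 genes, 3.66% were at least 25% higher and 5.8% at least 20% lower. Just under the limit were Msln (0.30), Upk3b (0.28) and Lrrn4 (0.28), and far from it Krt19 (-0.00), Tcf21 (-0.01) and Wt1 (-0.03). Msln, at 1.26-fold without a pseudocount, falls on this side by the added 1 RPKM. The count rests on that pseudocount: with 5 RPKM added, 0 of the 9 genes and 1.74% of all measured genes were at least 25% higher. Of the 9 genes, 0 were past 1.5-fold, where 1.52% of all measured genes were higher and 1.44% lower by that much, and 0 were past 2-fold, where 0.211% were higher and 0.333% lower. The median of the 9 genes was 0.28, and that of all measured genes -0.01 with quartiles of -0.14 and 0.13. Ranked by ratio, Krt8 lay among the highest 2.84% of measured genes, Krt18 and Upk1b among the highest 5.17% and 5.52%, and Msln, Upk3b and Lrrn4 among the highest 8.33%, 9.08% and 9.22%. The counting interval lay above 1 for 6 of the 9 genes and for 28% of all measured genes, and below 1 for none of the 9 and for 31.6% of all.

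Other genes of the epicardium and mesothelium spread more widely. Of 21 such genes, 20 were listed and 16 measured. At least 25% higher in KO were 6 of the 16, where 6.95% of all measured genes were, and at least 20% lower were 2, where 6.98% of all were. The median log2 ratio of the list was 0.24. With 5 RPKM added, 1 was higher and 1 lower by these limits, and at 1.5-fold 0 were higher and 1 lower. Of all measured genes, 1.74% were higher and 2.8% lower with 5 RPKM added, and 1.52% and 1.44% at 1.5-fold. The reads of the whole list summed to 35925 in KO and 36440 in WT, a ratio per library read of 1.004 (0.990 to 1.019). In this sum Cav1 alone held 4745 reads in KO and 7414 in WT. The counting interval lay above 1 for 11 of the 16 measured genes and below 1 for 3, against 28% and 31.6% of all measured genes. The retinaldehyde dehydrogenase Aldh1a1 had 3.08 RPKM in KO and 1.72 in WT, 1.79-fold higher (1.45 to 2.22). Itga4, the integrin subunit that attaches the epicardium to the myocardium, had 5.28 RPKM in KO and 3.26 in WT, 1.62-fold higher (1.51 to 1.74). Also higher were the tight junction claudin Cldn15 (1.60-fold, at 213 reads in KO and 136 in WT), the matrix fibulin Efemp1 (1.48-fold), the membrane glycoprotein Gpm6a (1.42-fold) and the Wnt agonist Rspo1 (1.34-fold). Of the measured genes in this list, Rspo1 is the only one on chromosome 4.

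A middle group of this list lay within the limit but had counting intervals above 1. The transcription factor Bnc1 was 1.24-fold higher, Nkain4, which encodes a protein interacting with the sodium pump, 1.23-fold, and the retinoic acid enzyme Aldh1a2 1.17-fold. The membrane-to-actin linker Ezr was 1.14-fold and the apical sialomucin Podxl 1.11-fold higher. Tbx18, a T-box factor of the epicardium, had 15.7 RPKM in KO and 15.6 in WT, a ratio of 1.009 (0.958 to 1.063). The guidance factor Sema3d stood at 0.944 of its WT level (0.887 to 1.004). Lower in KO were the sulfatase Sulf1 (1.11-fold, 1.07 to 1.15), the prostacyclin synthase Ptgis (1.36-fold, 1.245 to 1.49) and the caveolin Cav1 (1.53-fold, 1.48 to 1.59). Cav1, which endothelial cells also express, had 44.4 RPKM in KO and 68.2 in WT and had the highest mean level of the list. Below 1 RPKM in both libraries were Bnc2, Dmkn, C3 and Anxa8, and Muc16 was listed in neither table.

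**Figure D3:**
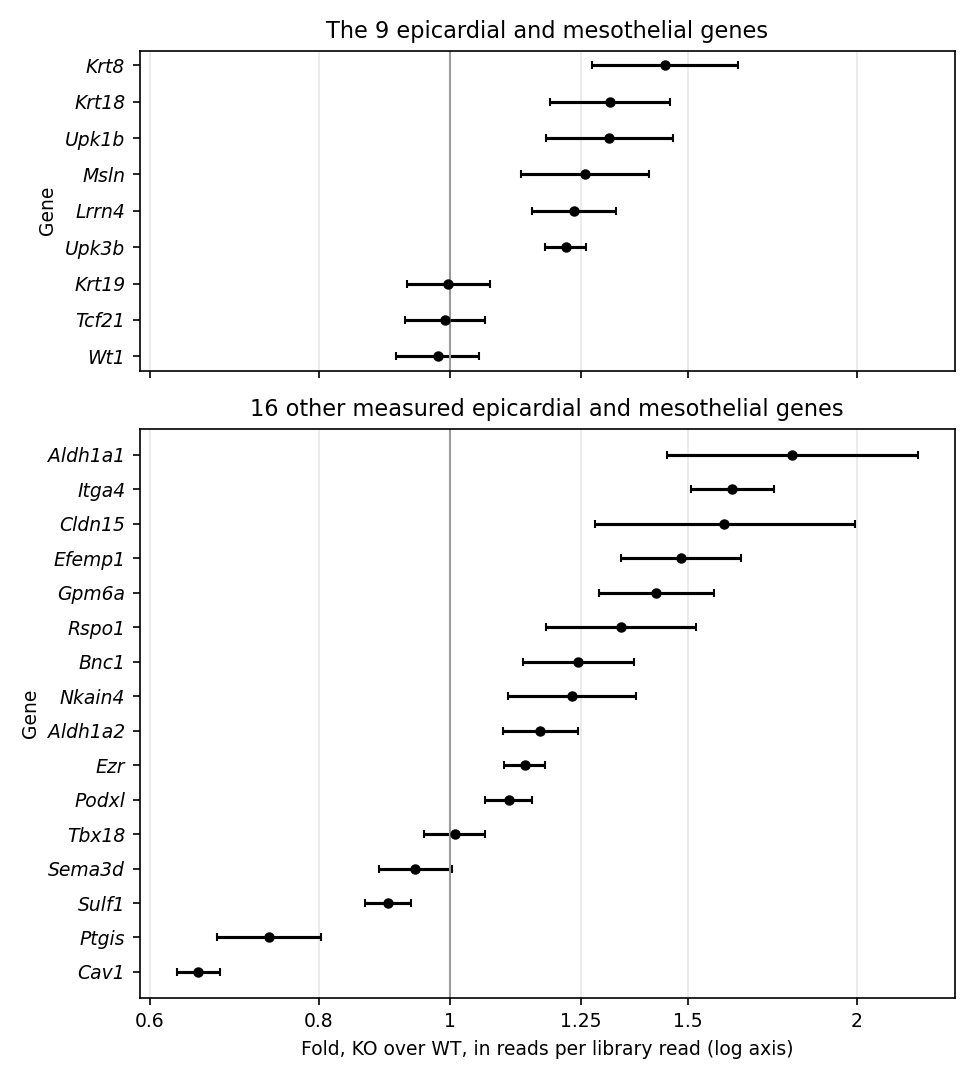
Fold in reads per library read, KO over WT (log axis), with exact 95% counting intervals, for the 9 genes (top) and 16 other measured epicardial and mesothelial genes (bottom). The intervals of Krt19, Tcf21 and Wt1 span 1 and do not overlap those of the other 6 genes, and the lower list runs from 0.652 (Cav1) to 1.79 (Aldh1a1).

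Beyond Krt8, Krt18 and Krt19, the keratin family was sparse. Krt7, a type II chain of simple epithelia, had 6.54 RPKM in KO and 5.97 in WT, 1.10-fold higher (1.003 to 1.197), and Krt20, a type I chain, had 111 reads in KO and 113 in WT. Krt80 was 1.68-fold lower (1.49 to 1.90), at 2.77 RPKM in KO and 4.66 in WT. The stratified-epithelium keratins went both ways at low counts, with Krt14 at 111 reads in KO and 49 in WT and Krt17 at 35 in KO and 105 in WT. Other genes hold 29.2% of the words of Krt14 and 15.8% of those of Krt17, which leaves their counts uncertain. Krt10 had 97 reads in KO and 117 in WT. Krt222 had 93 in KO and 102 in WT, Krt79 34 in KO and 21 in WT, Krt1 29 in KO and 24 in WT, Krt23 11 in KO and 14 in WT, and Krt15 8 in KO and 10 in WT. Krt13, Krt4 and Krt5 had 5, 3 and 2 reads in KO and 0 in WT, and Krt6a and Krt16 were listed in neither table.

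Genes of keratin-bearing epithelia other than mesothelium were mostly close to 0. Of 25 epithelial junction and polarity genes, 24 were listed but only 5 measured. Of these 5, 0 were at least 25% higher and 1 at least 20% lower, against 6.95% and 6.98% of all measured genes. The defining epithelial genes Cdh1 and Epcam had 2 and 23 reads in KO and 2 and 9 reads in WT. The most abundant measured member, the protease inhibitor Spint2, had 25.3 RPKM in KO and 27.9 in WT, and the polarity gene Llgl2 was 1.13-fold higher (1.03 to 1.24). Marveld2, a tight junction gene, was 1.24-fold lower (1.005 to 1.53), and the claudin Cldn3 4.50-fold lower (2.64 to 8.12) at 17 reads in KO and 78 in WT. Desmosome and plakin genes encode proteins that anchor keratin or desmin filaments, and some were abundant. Dsp was highest, at 80.8 RPKM in KO and 73.8 in WT, and in bulk RNA these reads cannot be assigned to epithelium. The list had a median log2 ratio of -0.06 over 7 measured genes. Of these 7, 0 were past the limit in either direction, against the same shares of all measured genes. Among them Dsp was 1.09-fold and Dsc2 1.06-fold higher, and Jup was 1.23-fold and Plec 1.14-fold lower.

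Genes of the epithelial-to-mesenchymal transition and of fibroblasts were mostly at or below their WT level. In bulk RNA their reads cannot be assigned to cells that came from the epicardium. Of 21 measured genes of the epithelial-to-mesenchymal transition and of fibroblasts, 0 were at least 25% higher in KO and 6 at least 20% lower, against 6.95% and 6.98% of all measured genes, and the median log2 ratio was -0.18. At 1.5-fold 3 of the 21 were lower, where 1.44% of all measured genes were, and at 2-fold 0, where 0.333% were. The median of the list was -0.13 with 5 RPKM added, and -0.07 among genes with at least 5 RPKM in one library. The collagen Col1a2 had 112 RPKM in KO and 171 in WT, 1.53-fold lower (1.503 to 1.55), and the proteoglycan Dcn 56.1 RPKM in KO and 86.9 in WT, 1.55-fold lower (1.49 to 1.61). Transition factors were closer to 1 and went both ways. Twist1 was 1.14-fold (1.03 to 1.246) and Zeb2 1.12-fold (1.07 to 1.18) higher, and Snai1 was 1.22-fold lower (1.07 to 1.39). Zeb1, Snai2 and Twist2 stood at 1.05, 1.04 and 0.939 of their WT level. Vim, the mesenchymal intermediate filament, had 748.6 RPKM in KO and 749.7 in WT.

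**Figure D4:**
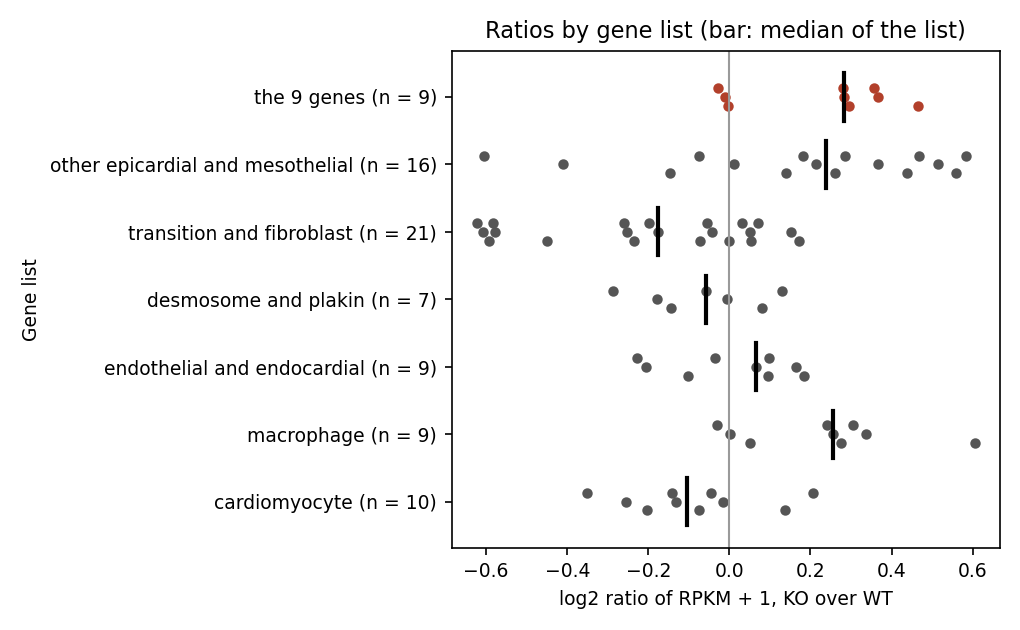
Log2 ratio of RPKM + 1, KO over WT, for each measured gene of 7 lists, with the median of each list as a bar. The medians are 0.28 for the 9 genes, 0.24 for the other epicardial and mesothelial genes, 0.26 for macrophage markers and -0.18 for transition and fibroblast genes.

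Other cell types that could carry these genes were checked through their markers. Hepatocytes contain Krt8 and Krt18, and the hepatocyte genes Alb and Afp had 0 and 4 reads in KO and 88 and 145 in WT. The list went both ways, since Apob had 199 reads in KO and 74 in WT, 2.74-fold higher (2.09 to 3.63). Ahsg had 68 in KO and 79 in WT, Ttr 34 in KO and 22 in WT, Apoh 4 in both, and Apoa1 2 in KO and 19 in WT. Hnf4a had 0 reads in KO and 4 in WT, Serpina1a had 0 in KO and 2 in WT, and Fgb was listed in neither table. The 9 listed markers summed to 311 reads in KO and 437 in WT. Lung and foregut markers were near 0: Nkx2-1 had 18 reads in KO and 25 in WT, Sox2 16 in KO and 18 in WT, Sftpb 5 in KO and 0 in WT, Foxa1 0 in KO and 7 in WT, and Foxa2 0 in KO and 1 in WT. Sftpc and Shh were listed in neither table, and Id2, which many cell types express, was 1.43-fold higher (1.37 to 1.503). Among kidney and gonad genes, where Wt1 and Tcf21 are also active, Six2 had 14 reads in KO and 37 in WT, Pax2 0 in KO and 1 in WT, Pax8 4 in KO and 0 in WT, Nr5a1 4 in KO and 2 in WT and Amh 12 in KO and 17 in WT. In that list Nphs1 had 64 reads in KO and 52 in WT and Lhx9 55 in KO and 42 in WT, whereas Gata4, a heart gene as well, had 71.9 RPKM in KO and 82.7 in WT.

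Most macrophage markers were higher in KO too. Their reads summed to 6004 in KO and 4915 in WT, 1.24-fold higher (1.20 to 1.29), and their median log2 ratio was 0.26 over 9 measured genes, with 2 at least 25% higher and 0 at least 20% lower, against 6.95% and 6.98% of all measured genes. The count of 2 was 4 with a pseudocount of 0.1 RPKM and 1 with a pseudocount of 5 RPKM, 1 at 1.5-fold and 0 at 2-fold. In these settings 9.98%, 1.74%, 1.52% and 0.211% of all measured genes were higher. Cd68 was 1.64-fold and C1qc 1.28-fold higher, and C1qa had 317 reads in KO and 331 in WT. Cardiomyocyte markers summed to 0.964 of their WT reads (0.962 to 0.967), with a median log2 ratio of -0.10 over 10 genes. Of these 10, 0 were at least 25% higher and 1, Tnnt2, at least 20% lower (1.28-fold). The shares of all measured genes were 6.95% and 6.98%. At 1.5-fold 0 of the 10 were lower, where 1.44% of all measured genes were. Myh6 was 1.15-fold and Ryr2 1.10-fold higher, and Actn2 was 1.19-fold lower. The part of these cell types in the levels of the 9 genes was not tested.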

How the data were processed

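RNA from 1 SRSF10-/- and 1 wild-type library of E13.5 mouse hearts was analysed, and libraries were grouped by the genotype in their labels. Per the submitters' processing notes, Bowtie 0.12.2 and the build mm9 were used. Which annotation and filters were applied, and whether strand was kept, is not given in the sources used here. Per the file headers, the authors' tables give for each gene a count of uniquely mapped reads (in total 38.89 M in KO and 39.61 M in WT). The authors also deposited RPKM, which scales each count to listed length and that total, and coverage, the share of the listed length with reads. Genes in only one table got 0 reads in the other.

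The members, the 13 related lists (154 genes, 146 of them listed) and the limit of 25% higher or 20% lower were chosen with earlier results of these data known. Although the tables hold counts, no count model was run, since a single library a group leaves no replicate spread to estimate. Ratios are log2(RPKM + 1), KO over WT, for genes reaching 1 RPKM in either library, and the pseudocount of 1 understates low genes. Folds with intervals divide each count by its library total, use no pseudocount and come with exact conditional (Clopper-Pearson) 95% intervals. Ratios of ratios are conditional odds ratios. The functions were tested on simulated data. Lacking molecular identifiers, reads may repeat a molecule, so intervals and the floor of 3 reads cover counting error only.

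All 9 members and Srsf10 were named. In the list of other epicardial and mesothelial genes every measured gene was named, in the keratin and uroplakin families every listed gene, and in lists of other tissues every marker except 1, which is not reported here. For other lists the most abundant gene and those with the largest ratios, up to 2 in each direction, were named. In the transition and fibroblast list all transition factors were named as well. No gene was named for a like pattern, since 2 libraries give a single ratio per gene. Symbols matched 17196 of 17646 identifiers. Chromosomes and shared 31-base words came from GENCODE M21 (GRCm38), and promoters, found for 5 of the 9 genes, from RefSeq (GRCm38.p6); neither is the mm9 build of the files. Python 3.11.15, scipy 1.17.1 and edgeR 4.0.16 (TMM factors only) were used. Alternatives were other pseudocounts, filters, fold limits and scalings, and, added after the data were seen, a background of genes in the members' range of levels and leaving out Krt8 and Krt18.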

Additional observations from a re-analysis of the deposited data

How the results depend on the processing

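No paired analysis was possible because each group has 1 library and the labels give no replicate numbers. No replicate could be left out for the same reason. Under pseudocounts of 0.1 and 5 and 3 rescalings, the log2 ratio stayed above 0 for Krt8 (0.32 to 0.52), Krt18 (0.29 to 0.39), Upk1b (0.26 to 0.39), Msln (0.20 to 0.33), Upk3b (0.27 to 0.30) and Lrrn4 (0.21 to 0.30), and below 0 for Wt1 (-0.03 to -0.01). The sign of Krt19 (-0.0044 to 0.01) and Tcf21 (-0.01 to 0.01) turned between scalings, so neither has a direction. Wt1 has none either, since the counting interval of its fold (0.913 to 1.052) includes 1. The count of the 9 genes at least 25% higher was 3. It was 4 with a pseudocount of 0.1, 0 with a pseudocount of 5, 0 at 1.5-fold and 0 at 2-fold, and 1 of 7 without Krt8 and Krt18. Their median was 0.21 with a pseudocount of 5 against 0.28. Of all measured genes, 9.98% were at least 25% higher with a pseudocount of 0.1 and 1.74% with a pseudocount of 5. For the other epicardial and mesothelial genes, a pseudocount of 5 left 1 higher and 1 lower, the 1.5-fold limit 0 higher and 1 lower, and the 2-fold limit 0 in each direction. For the other lists, 266 of the recomputed values were labelled the same and 31 moved. A count kept the label if it changed by at most 1.5-fold, and a median if it stayed within the counting interval of its middle genes. Counts that were 0 in every setting are among the 266, so this tally does not measure constancy. The lung and foregut median rests on 1 measured gene, Id2 (0.51). That median turned to -0.0081 without a filter, when genes below 1 RPKM were included. A pseudocount moves low genes most by construction. Depth limits the rarest markers, since a count of 0 allows up to 3 reads.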

Other observations

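The E-protein genes, whose products pair with Tcf21 to bind DNA, were at or below their WT level. Tcf3 had 32.4 RPKM in KO and 40.2 in WT, 1.24-fold lower (1.19 to 1.30), and Tcf4 was 1.11-fold lower (1.07 to 1.14). Tcf12 had 32.55 RPKM in KO and 32.3 in WT, a ratio of 1.006 (0.971 to 1.043).

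Endothelial and endocardial markers summed to 62221 reads in KO and 63893 in WT, a ratio per library read of 0.992 (0.981 to 1.003). Of the 9 measured genes, 0 were at least 25% higher or 20% lower, against 6.95% and 6.98% of all measured genes. Their median log2 ratio was 0.07. The sialomucin Emcn was 1.14-fold and the receptor Tek 1.12-fold higher, the cadherin Cdh5 1.17-fold and the transcription factor Nfatc1 1.16-fold lower, and the most abundant, Eng, 1.07-fold lower.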
